A study of Homo sapiens with 24 samples.

Results

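The comparison described here is the difference between 2 leukaemia cell lines in their transcriptional response to all-trans retinoic acid (ATRA) given together with arsenic trioxide (ATO). For every gene it is the log2 fold change of combination-treated against untreated NB4 cells minus the same fold change in HL-60 cells, so a positive value means that the NB4 response lay above the HL-60 response. It rests on 12 of the 24 RNA-seq libraries of the series, which form 4 of its 8 groups of 3 libraries each: untreated NB4, NB4 given ATRA plus ATO, untreated HL-60 and HL-60 given ATRA plus ATO. Both lines are labelled wild type in genotype, and treated cells were exposed for 48 h. As single agents ATRA was used at 1 µM and ATO at 0.8 µM. How much of each drug went into the combination is not labelled separately, nor is a time for the untreated cells. NB4 is an acute promyelocytic leukaemia line that carries the PML-RARA fusion. HL-60, labelled as promyeloblasts, is an acute myeloid leukaemia line without that fusion. Each is 1 cell line, so PML-RARA status and every other difference between the lines cannot be told apart. Nothing says that the 3 libraries of a group came from separate cultures, and p-values then measure only the spread between these samples, which may be technical.

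ATRA binds nuclear retinoic acid receptors, which as heterodimers with RXR switch target genes on, and it drives promyelocytic leukaemia cells towards mature granulocytes. ATO binds cysteine thiols, including those of PML, and leads to sumoylation and degradation of PML and of PML-RARA. It also loads cells with oxidative and metal stress, to which they answer through NRF2, the metal-sensing factor MTF1 and the heat shock factors. The pair of drugs is the established treatment of acute promyelocytic leukaemia, and HL-60 cells are a common retinoid-responsive line for comparison.

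The 12 libraries held between 37811652 and 53023035 counted reads. Levels are given as CPM, the reads of a gene scaled to a common normalised library size, library by library in the order of the batch label, which runs from 1 to 3 and equals the replicate number. HL60 combination replicate 2 stood apart from the others of its group: chi-square per degree of freedom against them was 25.9 and 18.4, compared with 5.68 between the remaining pair and with 8.17 to 17 within the other groups. Without it 8566 genes were called for the line difference, compared with 8524 with it. The promyelocyte markers MPO, ELANE, PRTN3, AZU1 and CTSG summed to 9100 to 9780 CPM in untreated NB4 and to 3580 to 4050 CPM in untreated HL-60, and none of the 5 was at 0. Under the combination that sum was 2070 to 2740 CPM in NB4 and 143 to 191 CPM in HL-60. In NB4 4 of the 5 fell and PRTN3 rose, and in HL-60 all 5 fell. The 10 granulocyte markers summed to 44.6 to 47.8 CPM in untreated and 492 to 525 CPM in treated NB4, and to 184 to 196 and 235 to 263 CPM in HL-60. Such sums are led by the members of highest level. In NB4 9 of the 10 were called rising and 0 falling. In HL-60 5 rose and 2 fell, CXCR2 by 0.77 and MMP25 by 0.76 on the log2 scale. The 10 monocyte and macrophage markers summed to 49.2 to 51 and then 83.6 to 111 CPM in NB4, and to 976 to 1070 and then 358 to 369 CPM in HL-60. Of the 9 tested, 6 rose and 2 fell in NB4, and 4 rose and 3 fell in HL-60. The 5 B cell markers summed to 4.6 to 4.62 and then 41.6 to 46.4 CPM in NB4, and to 1.22 to 1.55 and then 3.33 to 4.62 CPM in HL-60. Of the 4 tested, 2 rose and 1, CD79B, fell in each line. The 5 megakaryocyte and platelet markers summed to 1.35 to 2.15 and then 15.9 to 19.1 CPM in NB4, and to at most 1.23 CPM in HL-60. The 5 T cell markers summed to 19.6 to 24.1 and then 5.9 to 8.77 CPM in NB4, and to 12.3 to 13.1 and then 2.37 to 3.51 CPM in HL-60. Of the 4 tested, 1 rose and 1 fell in each line. Fibroblast and epithelial markers summed to at most 14.9 CPM and erythroid markers to at most 1.09 CPM in any library. No read of the B cell marker MS4A1 or the platelet marker PF4 was counted in these libraries, and 5 of the 6 erythroid markers were at 0 in each group. The part of these shifts in cell state in the differences below was not tested. In these bulk samples, fewer cells of a state and less RNA per cell cannot be told apart.

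The lines responded differently for a large share of their genes. Of 17930 genes tested, 8524 differed between the lines at an adjusted p below 0.05 in edgeR's quasi-likelihood test, 47.5% of those tested. The NB4 response lay above the HL-60 response for 4462 genes (24.9%) and below it for 4062 (22.7%). The counts of each gene list below are to be read beside these shares. A difference of at least 2-fold was called for 3619 genes, of which 2446 had the higher and 1173 the lower NB4 response. Each line on its own changed most of its tested genes: in NB4 11313 genes were called (63.1%), 5960 of them rising (33.2%) and 5353 falling (29.9%), and in HL-60 9691 (54.0%), with 4793 rising (26.7%) and 4898 falling (27.3%). Changes of at least 2-fold were called for 5447 genes in NB4 and 3705 in HL-60. Across all tested genes the median difference was 0.11 on the log2 scale, or 0.08 with genes that had no read in a group held at the floor of 3 reads. The balance was the opposite among the 9246 genes expressed in both lines, with at least 5 CPM in the higher group of each line and 0.5 CPM in all 4 groups. Of these 2756 had the higher and 3592 the lower NB4 response, and the median difference was -0.09.

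Genes changed by both lines mostly moved the same way. Of the 7391 genes called in both, 5964 (80.7%) rose in both or fell in both, and 1952 did so by at least 2-fold in each. The remaining 1427 moved in opposite directions, 739 rising in NB4 while falling in HL-60 and 688 the reverse. Of the genes with the higher NB4 response, 1156 rose in both lines, 1324 rose in NB4 with no call in HL-60, 700 fell in HL-60 with no call in NB4, and 475 fell in both. Of those with the lower NB4 response, 1127 fell in both lines, 1229 fell in NB4 with no call in HL-60, 565 rose in HL-60 with no call in NB4, and 412 rose in both. Pearson's r between the responses was 0.554 and Spearman's rho 0.479 across the 17930 genes, which are not independent replicates. Among the 9246 genes expressed in both lines, r was 0.601 and rho 0.537. For 3621 genes (20.2%) the 95% interval of the difference lay within 1.5-fold either way, so these responses were alike to that precision.

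**Figure D1:**
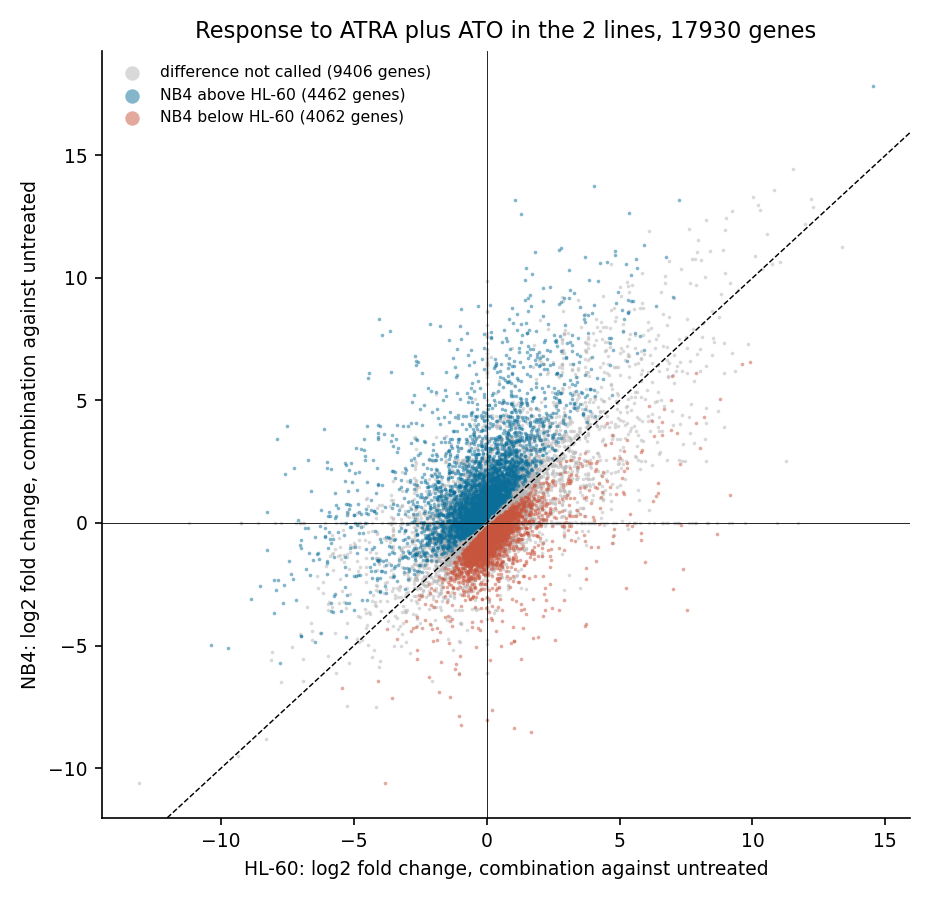
Log2 fold change under the combination in HL-60 (horizontal axis) against that in NB4 (vertical axis) for each of the 17930 tested genes; the dashed line marks equal responses. Blue points are the 4462 genes whose NB4 response was called above that of HL-60, red points the 4062 called below, and grey points the 9406 not called; points lined up at 0 on an axis are genes with no reads in that line's 2 groups.

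The lines were further apart after the combination than before it. Among the 9246 genes expressed in both lines, 1550 were at least 2-fold apart between untreated NB4 and HL-60, and 2550 were at least 2-fold apart between the treated groups. Of these, 994 were apart in both states, 556 untreated alone and 1556 under the combination alone by this cut. The median absolute gap rose from 0.41 to 0.6 on the log2 scale, and Pearson's r of log2 levels between the lines went from 0.879 to 0.813 over the same genes. Of the 6348 differences called among them (68.7%), 4264 widened the untreated gap and 2084 narrowed it. The same libraries enter the gap and the difference, so these counts are a description. Each batch held 1 library of every group. Of the 8524 called genes, 8450, 8480 and 8431 had the pooled sign in batches 1, 2 and 3, and 8316 had it in all 3. The median of the genes called higher was 1.12, 1.05 and 0.98 in the batches and 1.12 pooled, and that of the genes called lower was -0.75, -0.7 and -0.67 and -0.7 pooled. These genes were chosen by the pooled value, which is made of the same 3 batches, so the agreement is a description and no independent support, and a batch on its own gives no test.

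Differences were ranked among called protein-coding genes with 1 sign in the 3 batches. These genes also had at least 5 CPM in the higher group of each line and 0.5 CPM in all groups. By these criteria the 12 largest positive differences lay between 5.01 and 9.95 on the log2 scale. Genes outside them could differ by more, such as CD74 at 10.26. SIGLEC6, a sialic acid-binding receptor on chromosome 19 (51519525 to 51531856, GRCh38), stood at 1.08, 0.934 and 0.902 CPM in untreated NB4 and 11.8, 13.2 and 16.4 CPM under the combination. In HL-60 it stood at 170, 170 and 169 CPM untreated and fell to 2.88, 1.97 and 2.57 CPM. The line that was high untreated was the low one after treatment, and no group overlapped another. Its line difference of 9.95 ± 0.212 on the log2 scale (SE, adjusted p = 8.14e-26) was the highest of the 6044 genes that met the level and batch criteria for this ranking. PLD4, a lysosomal nuclease, rose from 1.1, 1.54 and 1.23 to 12, 10.6 and 8.22 CPM in NB4 and fell from 27.7, 26.7 and 25.1 to 0.99, 1.24 and 0.701 CPM in HL-60, a difference of 7.72 ± 0.316. PLXNC1, a semaphorin receptor, rose in NB4 from 3.38, 3.27 and 3.44 to 63.9, 64.7 and 70.7 CPM. In HL-60 it fell from 61.8, 65.5 and 69.7 to 21.1, 15.6 and 18.3 CPM, so that treated NB4 reached the level of untreated HL-60, and the difference was 6.15 ± 0.132. LILRA2, an activating leukocyte receptor, crossed in the same manner with a difference of 5.33 ± 0.198.

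ALOX5AP, the protein that presents arachidonic acid to 5-lipoxygenase, rose in both lines but from very different starting levels. It went from 1.38, 1.21 and 1.15 to 1450, 1700 and 1700 CPM in NB4, and from 70.8, 78.2 and 69.3 to 599, 685 and 600 CPM in HL-60. These are changes of 10.34 ± 0.128 and 3.11 ± 0.0843, and the difference was 7.23 ± 0.147 (adjusted p = 2.96e-26). IPCEF1 and TMC8 changed little in HL-60, by 0.55 and 0.21, and steeply in NB4, by 6.48 and 5.23. IPCEF1, which binds the cytohesin family of ARF activators, stood at 0.643, 0.561 and 0.349 CPM in untreated and 42.5, 42.2 and 53.4 CPM in treated NB4, and already at 36.1, 33.1 and 35.8 CPM in untreated HL-60. Its difference was 5.93 ± 0.189, and that of TMC8, a membrane channel-like protein, 5.01 ± 0.146. PRTN3, the primary granule protease proteinase 3, rose slightly in NB4 and fell steeply in HL-60. It stood at 341, 385 and 394 against 535, 511 and 397 CPM in NB4, where it rose by 0.37 on the log2 scale. In HL-60 it stood at 1180, 1310 and 1130 against 42.6, 54.4 and 36.5 CPM and fell by 4.75, so that most of the difference of 5.12 ± 0.146 lay on the HL-60 side.

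The 12 largest negative differences were taken by the same criteria, which left out genes such as ATF3 at -5.19. Of the 12 genes, 11 fell in NB4, all but TREM1, and 10 rose in HL-60, all but CST7 and PRRT4. ATP1B1, the beta subunit of the sodium pump on chromosome 1 (169105697 to 169132722), fell from 10, 11.8 and 10.4 to 1.21, 1.14 and 1.26 CPM in NB4 and rose from 14.9, 13.8 and 14.1 to 107, 105 and 105 CPM in HL-60. The untreated lines were close, the treated lines lay far apart, and the difference was -6.05 ± 0.192 (adjusted p = 9.35e-22). MTUS1, a microtubule-associated protein, showed -5.67 ± 0.21, with 14.4, 15.3 and 11.1 against 0.541, 1.05 and 0.434 CPM in NB4. PTGER4, a prostaglandin E2 receptor, had a difference of -4.59 ± 0.183, and SLC7A2, a transporter of cationic amino acids, one of -4.57 ± 0.114. CD83, a surface marker of antigen-presenting cells and an NF-kB target, went from 26, 23.6 and 26.6 to 15.4, 15.4 and 14.7 CPM in NB4 and from 12.2, 12.4 and 10.9 to 150, 155 and 151 CPM in HL-60. The order of the lines was reversed by treatment, and the difference was -4.42 ± 0.115. CST7, the inhibitor of lysosomal cathepsins cystatin F, fell in NB4 from 86.2, 85.4 and 83.2 to 5.5, 6.85 and 5.01 CPM. In HL-60 its change was not called (0.15, adjusted p = 0.184), and the difference was -4.02 ± 0.145. MRAS, a small GTPase of the RAS family, differed by -3.99 ± 0.0806. TREM1, an amplifier of inflammatory signalling on myeloid cells, rose in both lines, from 2.16, 2.57 and 2.79 to 3.94, 6.83 and 6.33 CPM in NB4 and from 7.54, 7.76 and 7.27 to 214, 225 and 221 CPM in HL-60, which gave -3.68 ± 0.203.

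**Figure D2:**
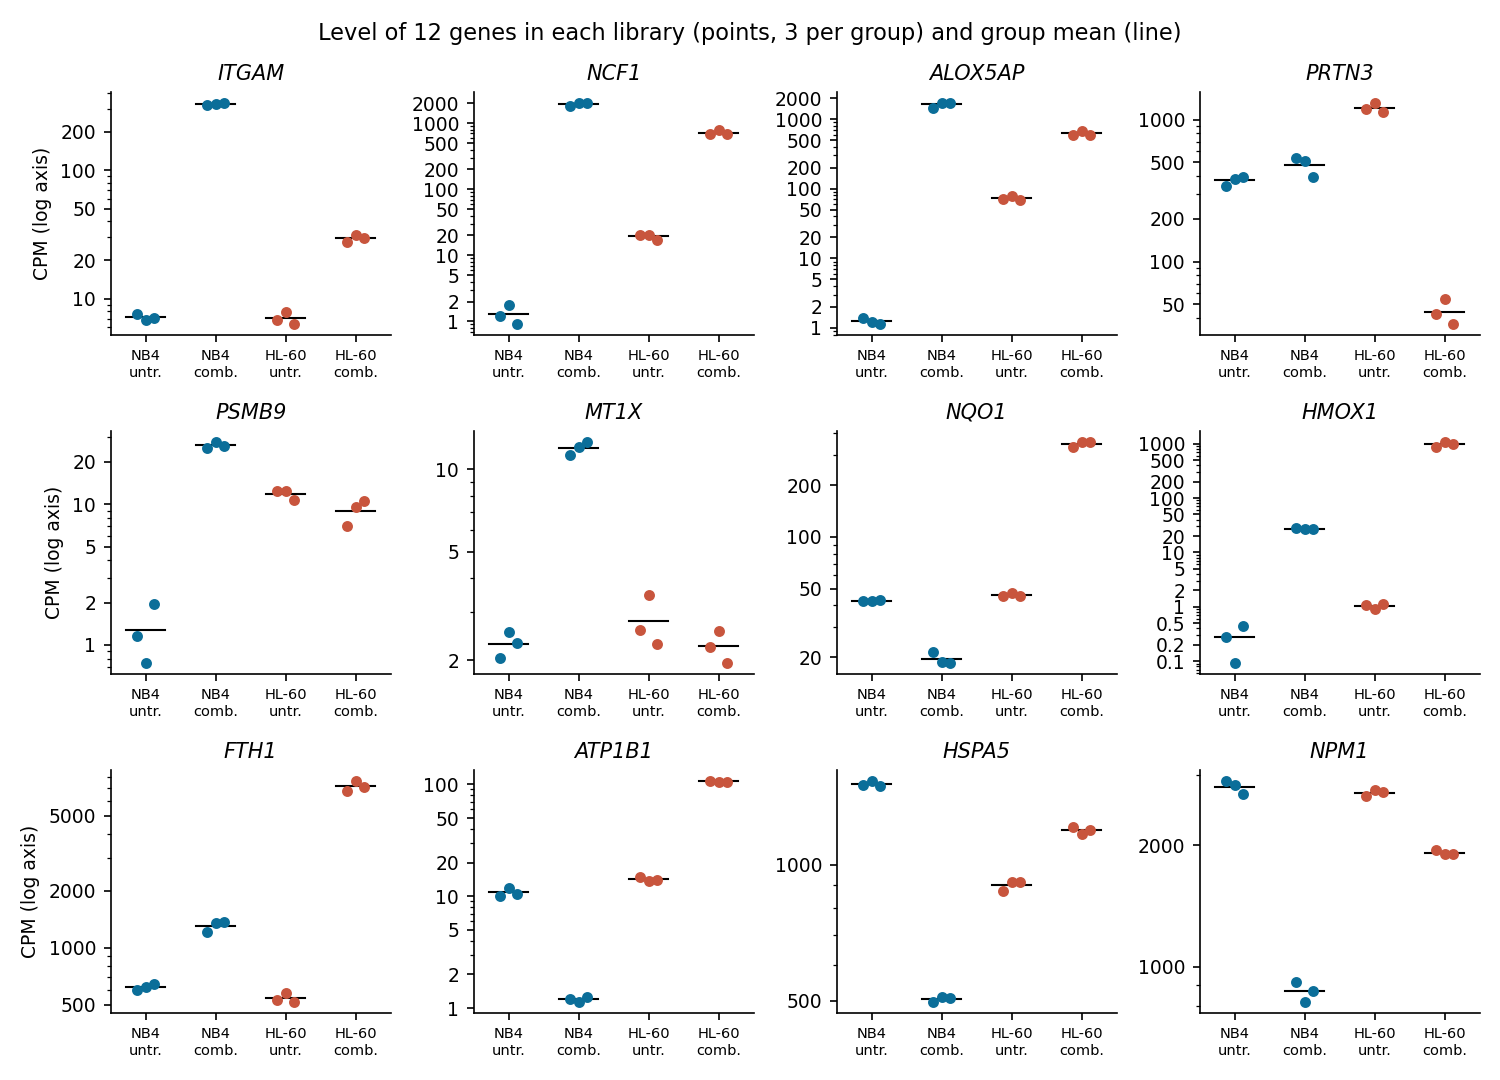
CPM on a log axis for 12 genes in each of the 12 libraries; points are libraries (3 per group, blue for NB4 and red for HL-60), and lines are group means. ITGAM, NCF1, MT1X and PSMB9 rose more in NB4, NQO1, HMOX1, FTH1 and ATP1B1 rose more in HL-60 or fell in NB4, and HSPA5 and NPM1 fell in NB4 below every other group.

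Of 36 genes that rose at least 2-fold in NB4 and fell at least 2-fold in HL-60 under the level criteria, and 18 that did the reverse, those with the largest smaller change are drawn in the plot of opposite responses. Beside SIGLEC6, PLD4, PLXNC1 and LILRA2, it holds HRH2, a histamine receptor, at 10.4, 11.2 and 9.51 against 37.6, 34.2 and 34.2 CPM in NB4 and 98.5, 94 and 90 against 12.3, 14.4 and 11 CPM in HL-60. It also holds CD84, an adhesion receptor of the SLAM family, whose treated groups met at 48.9, 44.1 and 42.8 CPM in NB4 and 47.6, 41.4 and 45.2 CPM in HL-60. The other direction was led by ATP1B1, MRAS, RAP2A, SDC4, ENAH and EPHX1. RAP2A, another small GTPase, went from 89.6, 92.6 and 86.8 to 26.3, 26.4 and 29.2 CPM in NB4 and from 32.2, 32.7 and 34 to 92.2, 76.7 and 90.6 CPM in HL-60. Treatment exchanged the levels of the lines for this gene. No gene met the rule for switching on in 1 line alone (under 0.1 CPM in the other 3 groups and at least 10 CPM in that line's treated group).

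**Figure D3:**
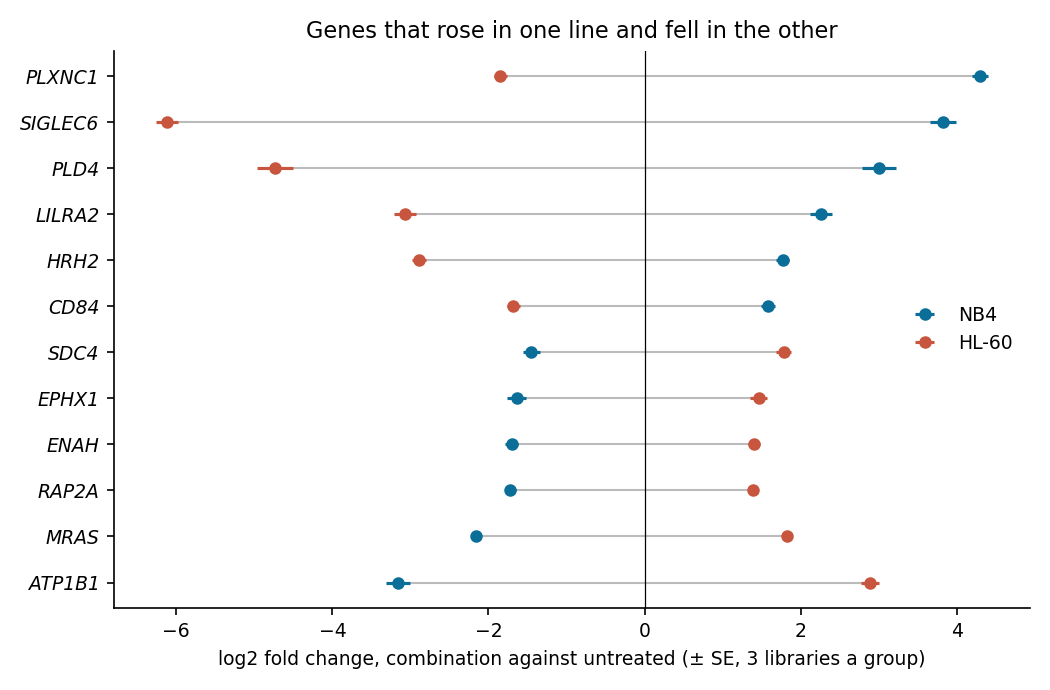
Log2 fold change under the combination with its standard error (3 libraries a group) for 12 genes called in opposite directions, NB4 in blue and HL-60 in red. PLXNC1, SIGLEC6, PLD4, LILRA2, HRH2 and CD84 rose in NB4 and fell in HL-60, and the other 6 genes did the reverse.

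Retinoid genes rose in both lines, and most of those that differed rose further in NB4. Of 21 genes for retinoid receptors and retinoic acid metabolism 18 were tested. The NB4 response was higher for 11 and lower for 3, with a median difference of 0.62, and 14 rose in NB4 and 13 in HL-60. DHRS3, which returns retinal to retinol, rose from 1.06, 0.841 and 1.91 to 142, 148 and 142 CPM in NB4 and from 15.3, 15.9 and 16.7 to 175, 187 and 180 CPM in HL-60. The treated levels were close, the untreated ones were not, and the difference was 3.3 ± 0.176 (adjusted p = 3.51e-16). CYP26B1, which breaks retinoic acid down, reached 54.7, 71 and 76.8 CPM in NB4 and 8.18, 7.6 and 8.62 CPM in HL-60 from 24 and 26 reads over the untreated groups. Its difference of 3.22 ± 0.721 was no longer called without HL60 control replicate 1 (2.06). CYP26A1, the related enzyme, was counted with 2 reads in untreated and 527 in treated NB4, a ratio of 240 (95% counting interval 66.1 to 1990, counting error only), and with 4 and 22 reads in HL-60. Its difference, 5.13 ± 1.6, also lost its call without that library, at 1.52.

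RARA, the receptor that ATRA binds and the fusion partner of PML in NB4, rose from 24.3, 23.5 and 25.1 to 49.1, 51.2 and 43 CPM in NB4 and from 46.5, 49.4 and 40.9 to 53.2, 64.4 and 55.2 CPM in HL-60. The difference was 0.64 ± 0.122 (adjusted p = 5.48e-05), and how far reads of the fusion transcript enter the RARA and PML counts was not tested. NCOA3, a coactivator of nuclear receptors, rose by 3.21 in NB4 and 2.07 in HL-60, a difference of 1.14 ± 0.0875. RDH10, which oxidises retinol to retinal, went the other way. It fell from 12.3, 12.2 and 13.9 to 4.73, 4.76 and 5.29 CPM in NB4 and rose from 18.4, 20.3 and 20.6 to 39.2, 40.7 and 38.6 CPM in HL-60, a difference of -2.38 ± 0.133. RARB, a receptor gene known for its retinoic acid response element, had no read in either untreated group. It reached 2296 reads in treated NB4 and 162 in treated HL-60, which is at least 233-fold higher and at least 20.5-fold higher against a floor of 3 reads per library, and no line difference could be estimated. Its promoter is shown because it holds the direct repeat of retinoic acid response motifs spaced by 5 bases, in capitals. The sequence is from RefSeq (GRCh38.p14, chr3:25428113-25428272, plus strand) and runs from 150 bases before the start of the gene to 10 after it.
RARB: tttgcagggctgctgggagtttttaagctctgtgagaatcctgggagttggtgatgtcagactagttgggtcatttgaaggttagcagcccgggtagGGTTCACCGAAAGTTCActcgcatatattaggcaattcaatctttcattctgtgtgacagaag
In the window searched, 250 bases before to 50 after the start on both strands, this repeat was found in 22 of 27305 promoters (0.0806%) and in 1 of the 16 retinoid genes with an entry. The repeat spaced by 2 bases was found in 12 promoters (0.0439%) and in none of these genes.

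Genes described as ATRA-responsive in promyelocytic leukaemia cells followed the same order. All 18 were tested. The NB4 response was higher for 11 and lower for 1 with a median difference of 2.37, or 1.43 with groups without reads at the floor, and 17 rose in NB4 and 16 in HL-60. TGM2, tissue transglutaminase, went from 6 reads over the 3 untreated NB4 libraries to 10500, 11500 and 11500 CPM, a ratio of 251000 (95% counting interval 115000 to 685000, counting error only). In HL-60 it went from 15 reads to 2540, 3060 and 2740 CPM. The treated groups did not overlap, with NB4 the higher. The fitted difference of 3.32 ± 0.813 (adjusted p = 0.00102) rests on those few untreated reads: it was 4.25 without NB4 control replicate 1, and 2.45 and no longer called without HL60 control replicate 2. PRAM1, an adaptor protein of myeloid cells, rose from 13.1, 12.5 and 13.3 to 739, 696 and 730 CPM in NB4 and from 103, 95.9 and 91.8 to 231, 261 and 224 CPM in HL-60, and differed by 4.49 ± 0.097. UBE2L6, the conjugating enzyme for ISG15, differed by 3.28 ± 0.15.

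Other genes of the same list differed less or were not called. CD38, an ectoenzyme long used as a retinoid response marker, rose from 88.3, 86.7 and 85.3 to 632, 651 and 687 CPM in NB4 and from 16.2, 18.1 and 16.1 to 146, 142 and 150 CPM in HL-60. Its level differed between the lines but its fold change did not pass the test (difference -0.19 ± 0.0876, adjusted p = 0.0697), and under 4 alternative analyses the same small difference was called. CEBPE, a transcription factor of late granulocyte development, rose by 2.45 in NB4 and 2.02 in HL-60, with a difference of 0.43 ± 0.108. For CEBPB the rises were 4.09 and 4.51. That difference, -0.42 ± 0.156 (adjusted p = 0.0253), lost its call at -0.44 with limma-voom, at -0.29 with library sizes alone, and at -0.29 to -0.38 without each of 4 single libraries (NB4 control 1, NB4 combination 1, HL60 control 3 and HL60 combination 2). HIC1 had no read in untreated NB4 and 4 in untreated HL-60, and rose to 60.2, 64.1 and 61.2 CPM and to 94.5, 114 and 88.8 CPM. This was at least 925-fold in NB4 and a ratio of 3300 (1290 to 12100) in HL-60, and the fitted difference was not called (adjusted p = 0.24).

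Markers of mature myeloid cells rose in both lines and further in NB4. Of 40 surface receptors 38 were tested, and the NB4 response was higher for 23 and lower for 4, with a median difference of 1.88. In NB4 34 rose and in HL-60 24, and 6 moved in opposite directions. ITGAM, the CD11b chain of the integrin used to follow granulocytic differentiation, started at overlapping levels in the lines. It rose from 7.65, 6.89 and 7.03 to 320, 331 and 334 CPM in NB4 and from 6.88, 7.9 and 6.39 to 27.8, 31.6 and 29.7 CPM in HL-60. The treated groups lay far apart, and the difference was 3.44 ± 0.136 (adjusted p = 2.12e-19). CSF3R, the receptor for granulocyte colony-stimulating factor, rose from 40.9, 38.2 and 42.7 to 411, 407 and 433 CPM in NB4 and from 158, 153 and 149 to 220, 236 and 205 CPM in HL-60, a difference of 2.83 ± 0.105. CXCR2, the neutrophil receptor for CXCL8, rose in NB4 from 2.02, 2.99 and 2.83 to 37, 39.7 and 35.7 CPM and fell in HL-60 from 31.7, 32.9 and 29.6 to 19.4, 17.5 and 18.6 CPM, a difference of 4.6 ± 0.14. C3AR1, the receptor for complement C3a, was 1 of the 4 with the lower NB4 response (-2.28 ± 0.208), and so were TREM1 and TLR1 (-1.26 ± 0.271).

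The subunits of the phagocyte NADPH oxidase, which makes superoxide, also rose further in NB4 for the most part. The NB4 response was higher for 7 of 10 genes and lower for 1, with a median difference of 1.79. CYBB, the membrane-bound catalytic subunit, rose from 200, 209 and 186 to 2940, 2930 and 3440 CPM in NB4 and from 206, 201 and 219 to 1380, 1220 and 1280 CPM in HL-60, a difference of 1.34 ± 0.0816. The cytosolic subunit NCF1 rose from 1.19, 1.78 and 0.923 to 1810, 2020 and 2000 CPM in NB4 and from 20.6, 20.3 and 16.9 to 676, 801 and 689 CPM in HL-60, a difference of 5.34 ± 0.187. NCF1 has near-identical pseudogene copies among which reads can be split, so its value is uncertain to that extent. RAC2, the haematopoietic GTPase of the complex, rose in NB4 by 1.97 and fell by 0.48 in HL-60, with a difference of 2.45 ± 0.0954. RAC1, its ubiquitous relative, went the other way at -0.59 ± 0.0667.

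Primary granule genes, which promyelocytes express, fell in both lines and fell less in NB4. Of 16 tested genes 12 fell in NB4 and 11 in HL-60, and the NB4 response was higher for 10 and lower for 3, with a median difference of 1.36. MPO, myeloperoxidase, fell from 8610, 8520 and 9170 to 2170, 2070 and 1640 CPM in NB4 and from 2350, 2460 and 2210 to 66.6, 88 and 74.9 CPM in HL-60. Treated NB4 thus stood near the level of untreated HL-60, and the difference was 2.77 ± 0.111 (adjusted p = 2.67e-19). BPI, a bactericidal protein of the same granules, rose instead, from 0.23, 0.187 and 0.287 to 219, 245 and 237 CPM in NB4 and from 0.633, 0.703 and 0.646 to 8.56, 11.3 and 8.68 CPM in HL-60. Its difference was 6.08 ± 0.408. Of 16 tested genes for secondary and tertiary granules the NB4 response was higher for 5 (31.2%, beside 24.9% of all tested genes) and lower for 0. In this list 5 had a group without reads. For the S100 proteins the NB4 response was higher for 5 of 8 and lower for 0. Their median difference of 1.33 does not equal the gap between the medians of the lines (1.87 in NB4 and 1.99 in HL-60), since different genes stood at the middle in each. S100A8, 1 chain of calprotectin, rose from 0.413, 0.234 and 0.451 to 165, 197 and 235 CPM in NB4 and from 0.481, 0.764 and 0.383 to 24.2, 24.6 and 27.6 CPM in HL-60, a difference of 3.55 ± 0.427. S100A9, the other chain, differed by 3.15 ± 0.294.

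Transcription factors of the myeloid lineage split between the lines. Of 27 tested the NB4 response was higher for 13 (48.1%) and lower for 9 (33.3%), and 5 moved in opposite directions. Over all tested genes the shares were 24.9% and 22.7%. SPI1, the PU.1 factor required for myeloid development, rose from 85.4, 87.1 and 94.6 to 282, 296 and 275 CPM in NB4 and from 166, 168 and 149 to 190, 224 and 195 CPM in HL-60, a difference of 1.34 ± 0.0979. IRF8, a factor of the monocyte and dendritic lineage, rose in NB4 from 0.827, 1.54 and 0.943 to 3.04, 3.8 and 2.77 CPM and fell in HL-60 from 129, 131 and 127 to 7.92, 9.4 and 7.6 CPM, a difference of 5.5 ± 0.187. JUN, a subunit of the AP-1 factor, rose from 6.84, 5.09 and 7.14 to 11.4, 17.4 and 17.2 CPM in NB4 and from 14.8, 13.5 and 12.9 to 275, 270 and 293 CPM in HL-60. Its difference was -3.08 ± 0.243.

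Secreted signals, coagulation and lipid mediators gave mixed results. Of 26 chemokine and cytokine genes the NB4 response was higher for 8 (30.8%) and lower for 5 (19.2%). These lay near the shares of all tested genes, 24.9% higher and 22.7% lower. CCL2, a monocyte attractant, rose from 1.61, 1.82 and 1.93 to 145, 170 and 171 CPM in NB4 and from 1.47, 0.603 and 1.44 to 834, 822 and 984 CPM in HL-60, a difference of -3.1 ± 0.248. TNF, the inflammatory cytokine, fell from 13.6, 10.3 and 11.6 to 3.44, 4.72 and 3.82 CPM in NB4 and rose from 3.54, 4.34 and 3.49 to 8.94, 7.56 and 8.48 CPM in HL-60, a difference of -2.69 ± 0.236. NF-kB subunits and targets were higher in NB4 for 10 of 20 and lower for 5. Among 13 tested genes of coagulation and fibrinolysis the NB4 response was higher for 6 (46.2%) and lower for 3 (23.1%). F3, tissue factor, the initiator of clotting, fell from 24.3, 23.2 and 23.1 to 0.604, 0.812 and 0.954 CPM in NB4 and from 12, 12.7 and 13.7 to 4.37, 4.71 and 5.09 CPM in HL-60. It fell further in NB4, with a difference of -3.45 ± 0.215 (adjusted p = 1.54e-14). SERPINB2, the inhibitor of plasminogen activators PAI-2, differed by 2.84 ± 0.434, and PROCR, the protein C receptor, by 2.15 ± 0.254. Of 15 lipid mediator genes 3 had the higher NB4 response (20.0%) and 6 the lower (40.0%). With library sizes alone as the scaling 4 were higher and 4 lower. PTGS1, the constitutive cyclooxygenase, rose by 4.63 in NB4 and 2.67 in HL-60, which made a difference of 1.96 ± 0.0896.

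Interferon-stimulated genes rose in both lines and further in NB4 for the most part. The NB4 response was higher for 30 of 39 (76.9%) and lower for 1, with a median difference of 1.78. The median change was 2.77 in NB4, where 34 rose, and 0.83 in HL-60, where 25 rose. PARP14, an ADP-ribosyltransferase, rose from 1.98, 0.701 and 0.943 to 42.7, 38.1 and 43.4 CPM in NB4 and from 68.3, 62.5 and 73.9 to 174, 144 and 173 CPM in HL-60. HL-60 stayed the higher line, yet the NB4 fold change was the larger. The difference was 3.84 ± 0.195 (adjusted p = 9.83e-17), or 4.37 without NB4 control replicate 1. IFIT5, an RNA-binding antiviral protein, rose from 0.276, 0.0934 and 0.451 to 8.33, 9.34 and 10.6 CPM in NB4 and from 2.63, 2.45 and 3.23 to 7.8, 6.89 and 8.71 CPM in HL-60, a difference of 3.57 ± 0.339. HERC5, the ligase for ISG15, was the 1 gene with the lower NB4 response: it fell in both lines and by more in NB4, at -0.92 ± 0.165. The promoters of IFIT5 and PARP14 are shown because they hold the interferon-stimulated response element GAAANNGAAA, in capitals on either strand (150 bases before to 10 after the start, RefSeq GRCh38.p14, IFIT5 at chr10:89414418-89414577 and PARP14 at chr3:122680689-122680848, both on the plus strand).
IFIT5: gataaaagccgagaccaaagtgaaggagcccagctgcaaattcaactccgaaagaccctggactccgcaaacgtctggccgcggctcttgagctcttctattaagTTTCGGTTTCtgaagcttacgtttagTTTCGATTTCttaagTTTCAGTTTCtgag
PARP14: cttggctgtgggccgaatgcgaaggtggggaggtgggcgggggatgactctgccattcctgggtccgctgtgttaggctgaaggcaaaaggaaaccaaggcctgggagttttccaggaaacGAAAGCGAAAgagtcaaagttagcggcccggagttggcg
In the 300 bases searched, this element was found in 18 of the 29 interferon-stimulated genes with a promoter entry (62.1%), compared with 996 of 27305 promoters (3.65%). For every motif given here, a match is a description of the letters and says nothing of binding.

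Genes of antigen presentation on MHC class I rose in NB4 for 14 of 17, with a median change of 1.2, while in HL-60 6 rose and 4 fell, with a median of 0.02. The NB4 response was higher for 13 and lower for 0, with a median difference of 1.35, and 9 of the 14 with a promoter entry held the interferon-stimulated response element (64.3%). PSMB9, a catalytic subunit of the immunoproteasome, rose from 1.15, 0.748 and 1.95 to 25, 27.7 and 25.8 CPM in NB4 and fell from 12.5, 12.5 and 10.7 to 6.99, 9.63 and 10.5 CPM in HL-60. The order of the lines was exchanged, and the difference was 4.72 ± 0.249 (adjusted p = 2.46e-16). TAP1, a subunit of the peptide transporter, rose from 8.08, 7.48 and 6.77 to 15.5, 17.7 and 14.4 CPM in NB4 and fell from 26.3, 28.5 and 27.2 to 16.3, 17.6 and 18.6 CPM in HL-60, which left the lines side by side, and differed by 1.74 ± 0.143. HLA-B, a class I heavy chain, was counted low in NB4 in both states (0.528, 0.724 and 0.492 against 0.833, 1.2 and 0.976 CPM) and fell in HL-60 from 173, 184 and 168 to 56.7, 58.1 and 54.4 CPM, a difference of 2.44 ± 0.277. Reads of the polymorphic HLA genes can be lost or shared between genes in counting, so their levels are uncertain. B2M, the shared light chain, rose in both lines, by 0.3 and 0.19, and its difference was not called (0.11 ± 0.0668, adjusted p = 0.177). Of 8 class II genes tested 2 had the higher NB4 response (25.0%, beside 24.9% of all tested genes), and 4 had a group without reads. In HL-60 6 of them fell (75.0%, beside 27.3% of all tested genes) and 2 rose. In NB4 0 fell and 2 rose. CD74, the class II invariant chain, was counted with 8 reads in untreated NB4 and rose to 16.9, 17.9 and 17.1 CPM, a ratio of 293 (95% counting interval 149 to 680, counting error only). It fell in HL-60 from 540, 566 and 521 to 115, 140 and 118 CPM, and the fitted difference was 10.26 ± 0.182. That error was derived from the F statistic and is smaller than the counting error of those 8 reads. Leaving out 1 library at a time gave 10.03 to 10.68.

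The metallothioneins with a called difference had the higher NB4 response, while a zinc exporter rose more in HL-60. The list of 12 genes held metallothioneins, the factor MTF1 itself and its target SLC30A1, and 7 were tested. The NB4 response was higher for 4, namely MT1F, MT1X, MT2A and MTF1, and lower for 1, SLC30A1. MT1E and MT1G were not called. MT2A, a cysteine-rich metal-binding protein, rose from 108, 109 and 118 to 336, 378 and 347 CPM in NB4 and from 22.2, 24.6 and 17.6 to 22.6, 35.1 and 26 CPM in HL-60, a difference of 1.28 ± 0.16 (adjusted p = 6.05e-08). MT1X stood at 2.04, 2.55 and 2.32 CPM in untreated and 11.3, 12.1 and 12.6 CPM in treated NB4. In HL-60 the groups overlapped (2.58, 3.46 and 2.3 against 2.24, 2.57 and 1.96 CPM), and the difference was 2.68 ± 0.229. For MT1F, which rose by 3.1 in NB4 and 0.84 in HL-60, it was 2.25 ± 0.287. These genes are near-identical copies, so the split of reads among them is uncertain. SLC30A1, the zinc exporter that MTF1 also drives, rose from 44.6, 44.5 and 40.6 to 58.1, 59.5 and 74 CPM in NB4 and from 77.5, 71.5 and 82.1 to 313, 266 and 300 CPM in HL-60, a difference of -1.36 ± 0.105. The promoters of MT2A and MT1X are shown for their metal response elements, TGCACNC or TGCGCNC, in capitals on either strand (150 bases before to 10 after the start, RefSeq GRCh38.p14, chr16:56608434-56608593 and chr16:56682320-56682479, plus strand).
MT2A: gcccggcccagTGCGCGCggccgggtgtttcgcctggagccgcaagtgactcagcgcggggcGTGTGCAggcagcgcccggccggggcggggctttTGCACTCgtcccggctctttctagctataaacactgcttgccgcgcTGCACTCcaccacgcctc
MT1X: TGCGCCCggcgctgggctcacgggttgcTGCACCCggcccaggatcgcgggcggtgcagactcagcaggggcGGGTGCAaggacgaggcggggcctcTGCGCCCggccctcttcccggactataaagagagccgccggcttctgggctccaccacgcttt
The element was found in 3 of the 4 list members with an entry and in 8014 of 27305 promoters (29.3%). Other lists varied, with 13 of 20 base excision and single-strand break repair genes (65.0%) and 3 of 29 mature myeloid surface receptors (10.3%). In the 300 bases MT2A held 8 matches and MT1X 4. Of 10 tested genes for arsenic uptake, methylation and export the NB4 response was higher for 4 (40.0%, beside 24.9% of all tested genes) and lower for 0. SLC2A3, a glucose transporter of that list, rose from 58.1, 50.4 and 64.2 to 211, 305 and 312 CPM in NB4 and from 27.3, 30.6 and 28.6 to 35.3, 37.1 and 38.5 CPM in HL-60, a difference of 1.9 ± 0.209.

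NRF2 target genes, the oxidative stress response, rose in both lines and further in HL-60. Of 29 tested the NB4 response was lower for 19 and higher for 4, with a median difference of -0.67. In HL-60 24 rose and the median change was 1.44, and in NB4 16 rose and 8 fell with a median of 0.51. HMOX1, heme oxygenase, was nearly silent untreated, at 0.276, 0.0934 and 0.451 CPM in NB4 and 1.06, 0.924 and 1.1 CPM in HL-60. It reached 27.7, 27 and 26.7 CPM in treated NB4 and 873, 1070 and 970 CPM in treated HL-60. The difference was -3.31 ± 0.46 (adjusted p = 3.84e-07), or -2.72 without NB4 control replicate 3. NQO1, a quinone reductase on chromosome 16 (69706996 to 69726951), fell from 42.6, 42.4 and 43 to 21.6, 18.7 and 18.6 CPM in NB4 and rose from 45.5, 47.3 and 45.2 to 335, 356 and 355 CPM in HL-60. From the same starting level the lines moved apart in opposite directions, with a difference of -4.04 ± 0.102. FTH1, the ferritin heavy chain that stores iron, rose from 597, 617 and 644 to 1210, 1350 and 1370 CPM in NB4 and from 527, 576 and 518 to 6740, 7630 and 7090 CPM in HL-60, a difference of -2.65 ± 0.0951. SQSTM1, the autophagy receptor p62, rose to 286, 314 and 312 CPM in NB4 and to 3420, 3910 and 3610 CPM in HL-60, and differed by -2.28 ± 0.108. The glutathione enzyme GCLM rose in HL-60 from 42.9, 41.2 and 47.8 to 218, 192 and 215 CPM, and its change in NB4 was not called (0.11, adjusted p = 0.167), so the difference was -2.13 ± 0.101. ME1, malic enzyme, differed by -2.95 ± 0.109.

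TKT, the transketolase of the pentose phosphate pathway, was 1 of the 4 genes with the higher NB4 response. It rose more in NB4, from 421, 437 and 461 to 2150, 2190 and 1990 CPM, than in HL-60, from 459, 475 and 420 to 854, 1000 and 874 CPM, a difference of 1.25 ± 0.0853. The promoters of ME1 and GCLM are shown for the antioxidant response element TGACNNNGC, in capitals on either strand (150 bases before to 10 after the start, RefSeq GRCh38.p14, chr6:83431042-83431201 and chr1:93909421-93909580, both minus strand).
ME1: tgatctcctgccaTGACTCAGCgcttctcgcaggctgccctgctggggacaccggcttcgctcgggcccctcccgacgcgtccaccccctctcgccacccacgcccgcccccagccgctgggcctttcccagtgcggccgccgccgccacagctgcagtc
GCLM: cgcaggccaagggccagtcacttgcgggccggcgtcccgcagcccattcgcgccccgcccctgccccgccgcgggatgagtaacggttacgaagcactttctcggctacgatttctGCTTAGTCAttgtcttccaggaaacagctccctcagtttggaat
The element was found in 6 of the 22 NRF2 target genes with an entry (27.3%) and in 3702 of 27305 promoters (13.6%). Its share varied between the other lists, so it was not particular to this one. It was 38.1% of 21 nucleotide excision repair genes, 33.3% of 15 integrated stress response genes, 8.33% of 24 homologous recombination genes and 8.06% of 62 cytosolic ribosomal protein genes.

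PML and the genes of PML bodies and sumoylation differed by less. Of 26 tested the NB4 response was higher for 6 and lower for 14, but 9 and 6 with library sizes alone as the scaling, so no direction is given for the list. PML, the body's scaffold, rose from 55, 54.7 and 57.8 to 123, 128 and 116 CPM in NB4, and in HL-60 its change was not called (35.9, 36.8 and 30.2 against 33.9, 40.5 and 32.6 CPM). The difference was 1.07 ± 0.105 (adjusted p = 4.12e-10). HIPK2, a kinase found in PML bodies, rose in both, by 2.45 in NB4 and 3.93 in HL-60, a difference of -1.47 ± 0.103.

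**Figure D4:**
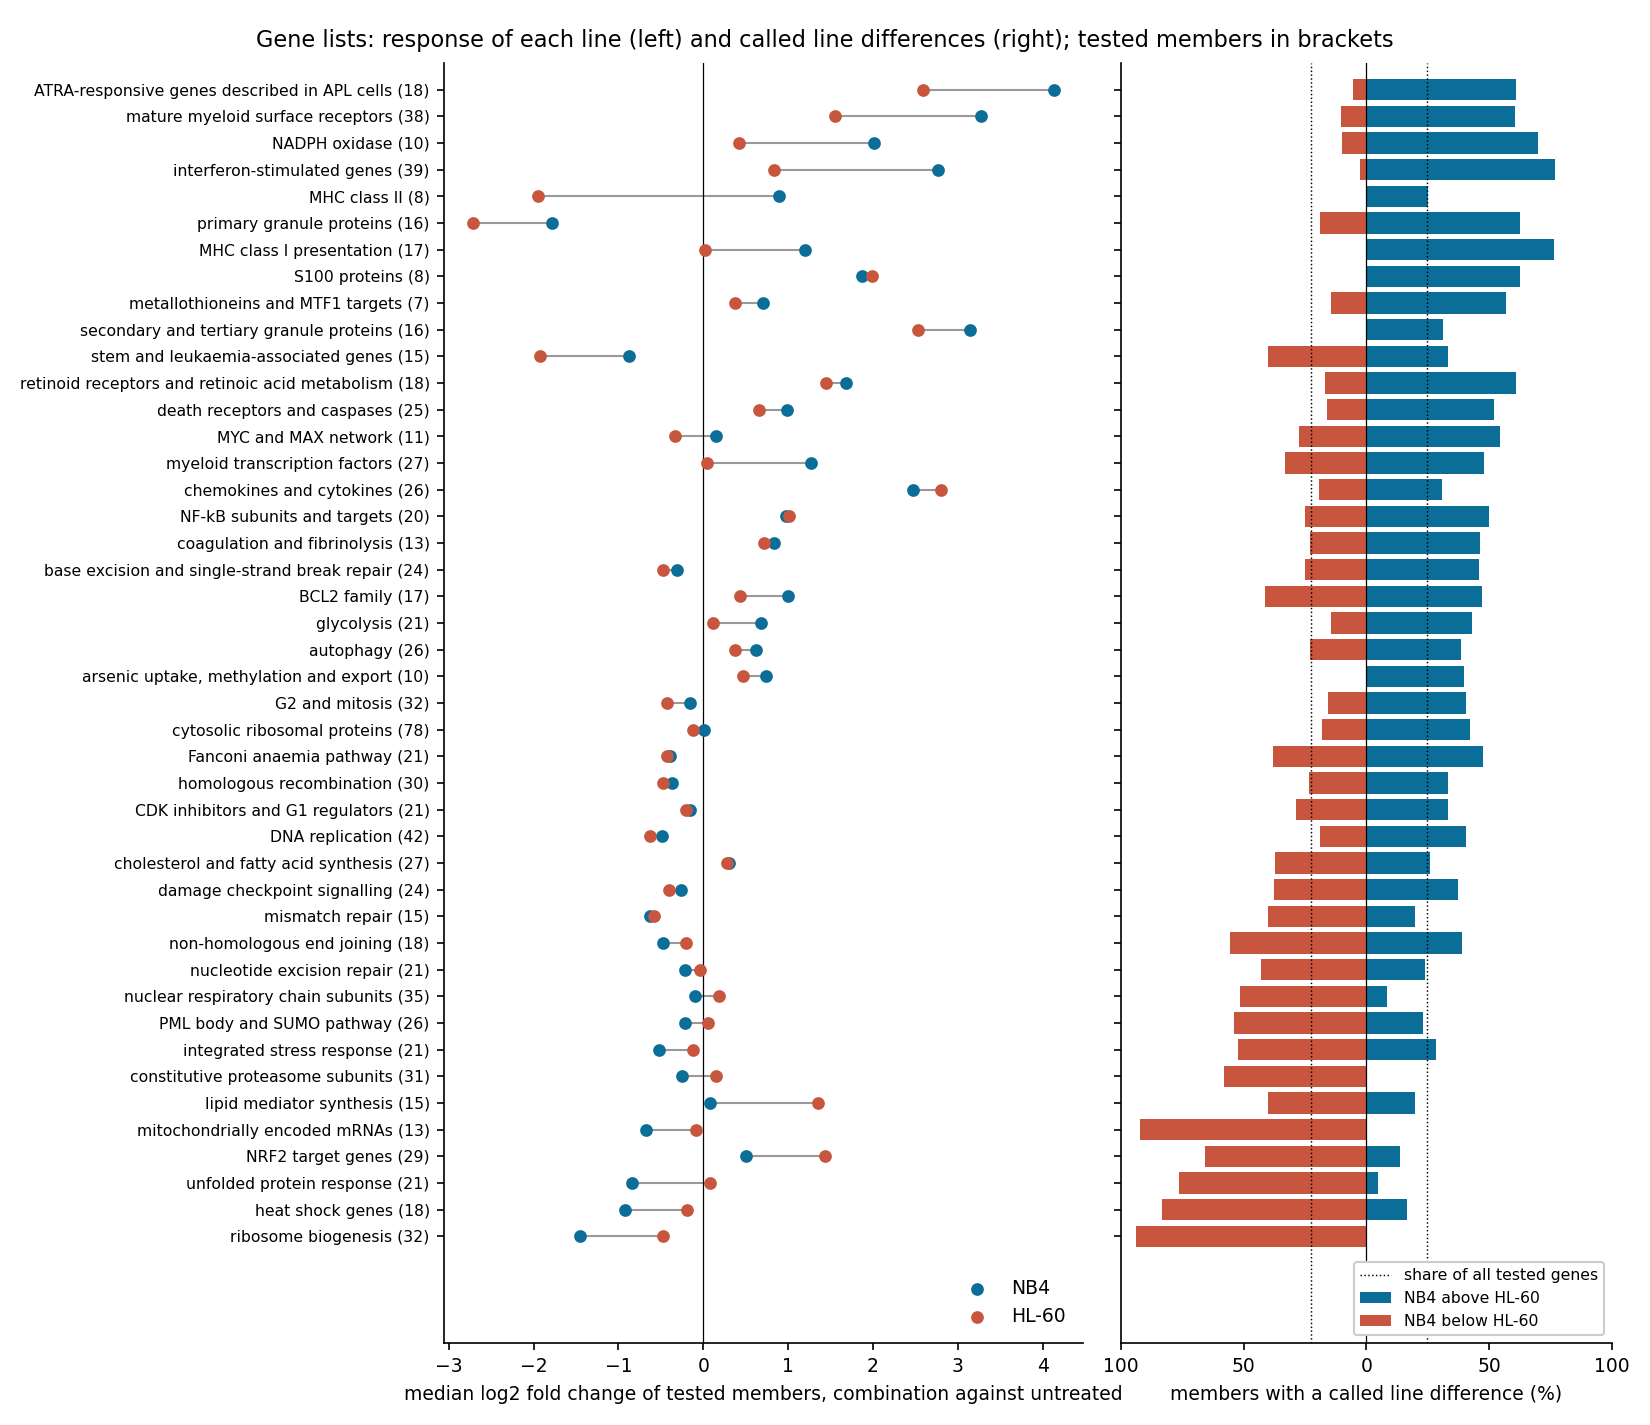
Left, median log2 fold change of the tested members of each gene list in NB4 (blue) and HL-60 (red); right, the percent of tested members whose NB4 response was called above (blue) or below (red) that of HL-60, with dotted lines at the shares over all tested genes (24.9% and 22.7%). Myeloid, interferon and MHC class I lists stand at the top, and ribosome biogenesis, heat shock, unfolded protein response and NRF2 target genes at the bottom.

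Protein folding genes fell more often and further in NB4. Of 18 tested heat shock genes 14 fell in NB4 and 9 in HL-60, and the NB4 response was lower for 15 and higher for 3, with a median difference of -0.95. The 3 were HSPA6 (3.58 ± 0.725), HSPB1 (0.43 ± 0.138) and DNAJB1 (0.2 ± 0.0811). HSPA6 rose by 3.35 in NB4, and its change in HL-60 was not called (-0.23). HSPA1A and HSPA1B were not tested. HSP90AA1, the inducible cytosolic HSP90, fell from 4270, 3710 and 3360 to 1200, 1130 and 1130 CPM in NB4, and in HL-60 its change was not called (2510, 2390 and 2600 against 2570, 2260 and 2400 CPM). The difference was -1.66 ± 0.111. BAG3, a partner of HSP70 induced by proteotoxic stress, rose by 0.34 in NB4 and 2.08 in HL-60, a difference of -1.75 ± 0.117. Of 21 genes of the unfolded protein response the NB4 response was lower for 16 and higher for 1, with a median of -0.78. In NB4 14 of them fell and 4 rose, and in HL-60 9 fell and 10 rose. HSPA5, the main chaperone of the endoplasmic reticulum, fell from 1500, 1530 and 1490 to 497, 510 and 506 CPM in NB4 and rose from 874, 917 and 913 to 1210, 1170 and 1190 CPM in HL-60. No group overlapped another, and the difference was -1.98 ± 0.0694 (adjusted p = 1.06e-20). XBP1, a transcription factor of this response, differed by -1.88 ± 0.0908. ERN1, the sensor that splices XBP1, was the 1 gene with the higher NB4 response, at 1.04 ± 0.148. Among 21 genes of the integrated stress response the NB4 response was lower for 11 and higher for 6. Its factor ATF3 fell from 3.35, 3.88 and 4.1 to 1.75, 2.36 and 1.52 CPM in NB4 and rose from 3.69, 4.24 and 3.21 to 61.5, 69.8 and 72.9 CPM in HL-60, a difference of -5.19 ± 0.258.

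Ribosome biogenesis fell in both lines and further in NB4. All 32 genes fell in NB4 and 29 in HL-60, and the NB4 response was lower for 30 (93.8%) and higher for 0, with a median difference of -1.02. The median change was -1.45 in NB4 and -0.47 in HL-60. NPM1, nucleophosmin, fell from 2890, 2820 and 2690 to 916, 818 and 870 CPM in NB4 and from 2660, 2740 and 2710 to 1950, 1900 and 1900 CPM in HL-60. The untreated groups overlapped, the treated ones did not, and the difference was -1.19 ± 0.0752 (adjusted p = 2.03e-14). GNL3, nucleostemin, fell from 355, 332 and 312 to 83.6, 66.2 and 77.2 CPM in NB4 and from 299, 291 and 297 to 232, 221 and 231 CPM in HL-60, a difference of -1.76 ± 0.104. TCOF1, a factor of ribosomal RNA synthesis, fell alike in both, by 1.06 and 1 on the log2 scale, and its difference was not called (-0.06 ± 0.0773, adjusted p = 0.575). With library sizes alone it was 0.08. MYC, the factor that drives many of these genes, fell from 501, 523 and 564 to 108, 114 and 96.3 CPM in NB4 and from 700, 759 and 677 to 251, 293 and 269 CPM in HL-60, a difference of -0.92 ± 0.0878. Its binding sequence CACGTG lay in the promoters of 10 of 24 ribosome biogenesis genes with an entry (41.7%) and of 2030 of 27305 overall (7.43%). A match says nothing of binding, and the part of MYC in the fall of these genes was not tested.

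Genes for cytosolic ribosomal proteins did not go with those that assemble the ribosome. Of 78 the NB4 response was higher for 33 and lower for 14, with a median difference of 0.15 beside 0.11 for all genes. With library sizes alone 48 were higher and 8 lower. For mitochondrially encoded mRNAs the NB4 response was lower for 12 of 13 and higher for 0. The median change was -0.68 in NB4, where all 13 fell, and -0.08 in HL-60, where 3 fell. MT-CO1, a subunit of cytochrome oxidase, stood at 13000, 9000 and 9970 CPM in untreated NB4 and fell to 7570, 6500 and 5880 CPM, while in HL-60 the groups overlapped. The difference was -0.68 ± 0.155 (adjusted p = 0.000493), and for MT-ND5, a subunit of complex I, -0.87 ± 0.164. For nuclear genes of the respiratory chain the NB4 response was lower for 18 of 35 and higher for 3. Constitutive proteasome subunits rose in HL-60 for 15 of 31 and fell in NB4 for 20, and the NB4 response was lower for 18 and higher for 0. PSMD12, a subunit of the regulatory cap, fell from 136, 145 and 125 to 85.4, 81.7 and 84.4 CPM in NB4 and rose from 118, 122 and 130 to 170, 146 and 155 CPM in HL-60, a difference of -1.04 ± 0.0897.

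DNA replication genes fell in both lines for the most part, and more of them fell in HL-60. All 42 DNA replication genes fell in HL-60 and 32 in NB4, and the NB4 response was higher for 17 and lower for 8, with a median difference of 0.11 that equals the median of all genes. TK1, thymidine kinase, rose from 26.3, 28.5 and 29.5 to 47.4, 47.5 and 40.6 CPM in NB4 and fell from 105, 115 and 97.3 to 50.3, 67.1 and 56.2 CPM in HL-60, a difference of 1.55 ± 0.124. CDT1, a licensing factor of replication origins, fell in HL-60 from 54.3, 55.9 and 49.7 to 22.6, 27.7 and 22.9 CPM with no call in NB4 (0.04, adjusted p = 0.676), and differed by 1.17 ± 0.121. Of 32 genes of G2 and mitosis 16 fell and 4 rose in NB4, and 22 fell and 3 rose in HL-60. The NB4 response was higher for 13 (40.6%) and lower for 5 (15.6%), beside 24.9% and 22.7% of all tested genes. CDKN1A, the p21 inhibitor of cell cycle kinases, rose from 0.643, 0.561 and 0.943 to 10.1, 12.5 and 12.6 CPM in NB4 and from 1.34, 1.59 and 1.91 to 3.09, 3.85 and 3.92 CPM in HL-60. The treated groups did not overlap, and the difference was 2.86 ± 0.348 (adjusted p = 3.43e-08). TERT, the telomerase reverse transcriptase, fell in both, from 15.8, 15.1 and 17.8 to 0.125, 0.185 and 0.13 CPM in NB4 and from 9.82, 9.85 and 10.4 to 0.233, 0.214 and 0.234 CPM in HL-60. Its difference of -1.3 ± 0.464 (adjusted p = 0.0212) rests on 22 and 26 reads over the treated groups, and lost its call without NB4 combination replicate 1 (-1.19), with limma-voom (-1.31) and with halved counts (-1.28).

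DNA repair genes showed no common direction of difference. Over 7 lists of repair pathways and damage checkpoints, 143 distinct genes were tested. The NB4 response was higher for 52 (36.4%) and lower for 51 (35.7%), and the median difference was 0.01. Over all tested genes these shares were 24.9% and 22.7%. Among the genes expressed in both lines 68.7% were called either way. With library sizes alone 62 were higher and 41 lower. In NB4 91 fell and 29 rose, and in HL-60 89 fell and 11 rose. Of the 91 that fell in NB4, 48 had the lower NB4 response, 14 the higher and 29 no called difference. By pathway, the NB4 response was higher for 10 and lower for 7 of 30 homologous recombination genes. The counts were 7 and 10 of 18 for non-homologous end joining, 3 and 6 of 15 for mismatch repair, and 11 and 6 of 24 for base excision repair. They were 10 and 8 of 21 for the Fanconi anaemia pathway, 5 and 9 of 21 for nucleotide excision repair, and 9 and 9 of 24 for checkpoint signalling. With library sizes alone the order was kept in the lists for homologous recombination, base excision repair, the Fanconi anaemia pathway and nucleotide excision repair, while end joining (8 and 8) and mismatch repair (4 and 4) were even and checkpoint signalling was 11 and 8.

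**Figure D5:**
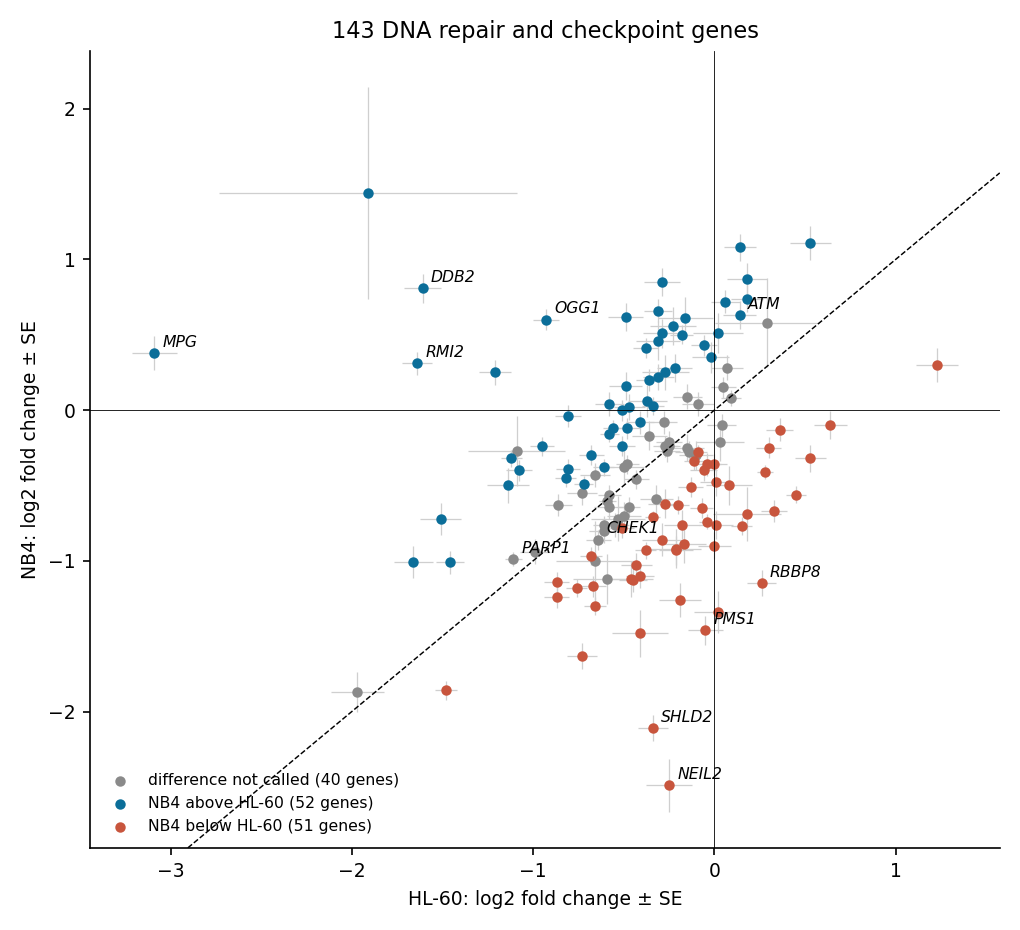
Log2 fold change with its standard error in HL-60 (horizontal axis) and NB4 (vertical axis) for 143 DNA repair and checkpoint genes, with the dashed line at equal responses. Blue points (52 genes) had the higher NB4 response, red points (51) the lower, and grey points (40) no called difference; 60 of the 143 genes were called as falling in both lines.

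Single repair genes differed widely all the same. MPG, a glycosylase that removes alkylated bases, rose from 13.5, 13.2 and 11.7 to 14.9, 17.8 and 17 CPM in NB4 and fell from 39.4, 43.8 and 38.9 to 4.83, 5.05 and 4.38 CPM in HL-60, a difference of 3.47 ± 0.167 (adjusted p = 2.98e-17). DDB2, the damage sensor of nucleotide excision repair, rose from 12.1, 12.4 and 12.1 to 21.3, 23.1 and 19.8 CPM in NB4 and fell from 20.4, 18.4 and 17.6 to 7.07, 5.01 and 6.52 CPM in HL-60, a difference of 2.42 ± 0.142. Both genes crossed between the lines. RMI2, a subunit of the complex that dissolves recombination intermediates, differed by 1.96 ± 0.112. OGG1, the glycosylase for 8-oxoguanine, rose by 0.6 in NB4 and fell by 0.93 in HL-60. On the other side, NEIL2, also a glycosylase, fell from 4.18, 4.44 and 4.14 to 0.541, 0.849 and 0.867 CPM in NB4 with no call in HL-60 (15.6, 14.4 and 16.1 against 12.1, 13.7 and 13 CPM), a difference of -2.24 ± 0.217. SHLD2, a shieldin subunit that protects broken ends from resection, differed by -1.77 ± 0.117. RBBP8, which starts that resection, differed by -1.4 ± 0.117, and PMS1, a mismatch repair protein, by -1.41 ± 0.136.

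The best-known genes of these pathways stood closer to the diagonal. PARP1, the sensor of single-strand breaks, fell in both, from 546, 567 and 577 to 297, 295 and 262 CPM in NB4 and from 799, 783 and 763 to 361, 371 and 354 CPM in HL-60. Its difference was 0.12 ± 0.065 (adjusted p = 0.121). For CHEK1, the checkpoint kinase, the difference was -0.22 ± 0.0952 (adjusted p = 0.057). Both were called under some alternatives, PARP1 at 0.16 to 0.26 and CHEK1 at -0.22 to -0.26. For BRCA1, which directs recombination, the difference was 0.19 ± 0.136 (adjusted p = 0.272). ATM, the kinase that signals double-strand breaks, rose by 0.63 in NB4 with no call in HL-60 (0.14, adjusted p = 0.192), and differed by 0.49 ± 0.13, although the ratios of single libraries overlapped between the lines.

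Cell death genes were split as well. Of 17 tested BCL2 family genes the NB4 response was higher for 8 (47.1%) and lower for 7 (41.2%), beside 24.9% and 22.7% of all tested genes. BCL2, the antiapoptotic founder of the family, fell from 65.9, 77.6 and 69.2 to 3.25, 3.88 and 3.34 CPM in NB4 and from 146, 148 and 160 to 37.3, 33.9 and 38.7 CPM in HL-60, and fell further in NB4 with a difference of -2.29 ± 0.132 (adjusted p = 2.16e-15). MCL1, an antiapoptotic relative, rose in both, by 1.17 and 0.85, and differed by 0.32 ± 0.0927. BIK, a proapoptotic member, rose in NB4 from 0.23, 0.0934 and 0.205 to 1.75, 2.2 and 1.89 CPM and fell in HL-60 from 9.69, 7.56 and 7.44 to 1.11, 0.428 and 0.818 CPM, a difference of 6.86 ± 0.427. PMAIP1, the proapoptotic NOXA, rose from 8.54, 9.76 and 8.2 to 15.8, 17.8 and 20.5 CPM in NB4 and from 27.6, 24.8 and 24.4 to 230, 208 and 236 CPM in HL-60, a difference of -2.11 ± 0.128. Of 25 death receptor and caspase genes 13 had the higher NB4 response (52.0%) and 4 the lower (16.0%). TNFSF10, the death ligand TRAIL, fell in NB4 from 7.14, 7.36 and 7.87 to 5.19, 3.76 and 4.99 CPM and in HL-60 from 8.48, 8.88 and 10.2 to 1.22, 1.03 and 0.818 CPM, a difference of 2.48 ± 0.245. APAF1, the core of the apoptosome, rose by 1.14 in NB4 and fell by 0.93 in HL-60, a difference of 2.07 ± 0.0974. CYCS, the cytochrome c that activates it, did the reverse at -1.73 ± 0.0789.

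A smaller set changed strongly and alike. By the rule of at least 2-fold in both lines with the 95% interval of the difference within 1.5-fold, 101 genes rose and 69 fell. C1RL, a complement-like protease, rose from 4.29, 4.32 and 3.49 to 78.4, 84.6 and 85.5 CPM in NB4 and from 1.39, 1.77 and 0.957 to 32.3, 32.4 and 30.9 CPM in HL-60. The levels differed between the lines and the fold changes did not pass the test (difference -0.15 ± 0.182). THBS1, thrombospondin, rose by 3.84 and 3.81, and GBP2, an interferon-induced GTPase, by 3.03 and 3.1. GPT2, a mitochondrial alanine aminotransferase, fell by 2.71 in NB4 and by 2.61 in HL-60, and HS6ST1, which sulfates heparan chains, fell by 2.15 in NB4 and fell by 2.21 in HL-60.

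The same contrast was taken for the single drugs at the stated doses. These comparisons use the same untreated libraries as the combination, so their values are only set side by side. For SIGLEC6 the line difference was 6.29 ± 0.199 with ATRA and 3.12 ± 0.207 with ATO, beside 9.95 with both drugs. For ITGAM it was 2.43 ± 0.134 with ATRA and 1.03 ± 0.141 with ATO, beside 3.44. PSMB9 gave 3.7 ± 0.244 and 2.04 ± 0.262, beside 4.72. The sign was positive with each drug and with both for these 3 genes. For NQO1 the values were -2.09 ± 0.105 with ATRA and -2.25 ± 0.0983 with ATO, beside -4.04. HMOX1 gave -0.5 ± 0.42 and -0.67 ± 0.4, beside -3.31, and FTH1 -0.91 ± 0.0939 and -1.5 ± 0.0941, beside -2.65. For MT2A the difference was 0.26 ± 0.193 with ATRA and -0.68 ± 0.157 with ATO, beside 1.28 with the combination, so its sign with ATO alone was the opposite. HSPA5 gave -0.66 ± 0.0687 and -0.36 ± 0.0687, beside -1.98, and NPM1 -0.59 ± 0.075 and -0.54 ± 0.075, beside -1.19. MPG gave 2.53 ± 0.16 and 0.39 ± 0.153, beside 3.47, and BCL2 -1.83 ± 0.128 and -1.08 ± 0.117, beside -2.29.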

How the data were processed

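Poly(A)-selected RNA of NB4 and HL-60 cells was sequenced as paired-end Illumina libraries, per the labels' protocols. The deposited table holds raw read counts per gene, made by the authors with fastp, HISAT2 and featureCounts on GRCh38, per the submitters' processing notes, which also name DESeq2 and give no versions. Of 60655 genes, 58393 (96.27%) were found in GENCODE release 29 and 2194 more in a gene name table. Strand use in the counting is not given in the sources used here. Low counts were mostly even (74.4% of counts of 1 to 9, against 51.5% of counts of 500 or more). Whether read ends were counted separately was not tested. If they were, the counting intervals given for genes with few reads are too narrow. Intervals from counts cover counting error only. Every one of the table's sample columns was matched to its sample by name (0 unmatched).

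All 24 libraries were fitted together with edgeR 4.0.16 (R 4.3.3), with 1 mean per group, filterByExpr, TMM scaling (factors 0.902 to 1.11 in the 12 libraries compared), quasi-likelihood tests with 16 residual degrees of freedom and Benjamini-Hochberg adjustment over 17930 genes; called means an adjusted p below 0.05. The common biological coefficient of variation was 7.98%. CPM are reads scaled to the TMM-adjusted library size. On simulated counts with known line differences (17527 genes), 65.7%, 85.1% and 98.5% of 1.5-, 2- and 4-fold differences were recovered and 3.49% of calls were false. There 200 genes of at least 1 CPM in NB4 were changed, and all others had no combination response in either line. The spread was that of the same fit. These rates describe that setting, not data in which 47.5% of genes were called. Same-numbered libraries did not deviate together (residual correlations -0.00536 to 0.0426 within a line and -0.0216 to 0.0578 across lines), so the numbers were not taken as pairs.

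The comparison, the gene lists and the rules were chosen with earlier results of these data known. Named genes were the 12 largest differences each way among called protein-coding genes with at least 5 CPM in the higher group of each line, 0.5 CPM in all groups and 1 sign in the 3 batches; genes on in 1 line alone (none found); the 6 each way with the largest opposite changes; the 6 rises and 6 falls shared within 1.5-fold; for each list the 3 members of smallest p and the uncalled member of highest level; and a panel of 32 genes. The text gives those that repeat least, and other list members as examples chosen after their values were seen. Some genes are not reported here. Promoters came from RefSeq (GRCh38.p14), with an entry for 11014 tested genes. Alternatives with limma 3.58.1 and DESeq2 1.42.0 are in the closing section. Figures were drawn with matplotlib 3.10.9.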

Additional observations from a re-analysis of the deposited data

Results flagged for a closer look

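The response to the combination was tested for a difference between the lines, and each of the following passed that test. It was called for 8524 genes, of which 4462 had the NB4 response above that of HL-60 and 4062 below. Of the genes described by name for opposite responses, 6 rose in NB4 and fell in HL-60: SIGLEC6 with a log2 line difference of 9.95, PLD4 with 7.72, PLXNC1 with 6.15, LILRA2 with 5.33, HRH2 with 4.67 and CD84 with 3.26. The other 6 fell in NB4 and rose in HL-60: ATP1B1 with -6.05, MRAS with -3.99, SDC4 with -3.23, RAP2A with -3.11, EPHX1 with -3.1 and ENAH with -3.09. Groups of 3 libraries are too small for the test of a single outlying value, which was not run.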

How the results depend on the processing

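The count of called line differences stayed within 1.5 times under every alternative run: 8994 with DESeq2, 8688 with limma-voom, 8566 with DESeq2 size factors, 8378 for every gene with at least 1 read, 8302 with at least 1 CPM in 3 libraries, 8154 from the 12 libraries alone, 8416 with halved counts, 6972 at an adjusted p below 0.01, and 8081 to 8566 leaving out 1 library at a time. With a replicate block shared by both lines the count was 8398, of which 8363 were also called without it, and with a replicate block within each line 8439. Library sizes alone gave 8566, with 61.9% higher in place of 52.3%, and moved the median of all genes by 0.136. No gene called in both analyses changed sign. Of 2640 alternative values of 120 named genes, 2599 kept direction and call, 13 lost the call, 14 gained it and 14 changed sign. The changes of sign were all in genes that were not called. Library sizes alone gave 0.08 for TCOF1, 0.07 for GBP2 and 0.03 for GPT2. Leaving out 1 library at a time gave -0.68 to 3.56 for HIC1, -0.4 to 0.04 for C1RL, -0.18 to 0.17 for THBS1, -0.21 to 0.03 for GBP2, -0.22 to 0.04 for GPT2 and -0.02 to 0.18 for HS6ST1. The cause was not tested. Depth limits the genes with few reads in an untreated group (CYP26A1, CYP26B1, TGM2 and HIC1), and 1623 tested genes had a group at 0 reads.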

Other observations

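Several gene lists not described above were also split between the lines. Of 21 tested glycolysis genes the NB4 response was higher for 9 and lower for 3, and 13 rose in NB4 and 9 in HL-60. Of 26 tested autophagy genes it was higher for 10 and lower for 6, and most rose in both lines (18 in NB4 and 16 in HL-60). Of 11 genes of the MYC and MAX network it was higher for 6 and lower for 3. Of 27 genes of cholesterol and fatty acid synthesis it was higher for 7 and lower for 10, but 12 and 9 with library sizes alone, so no direction is given. The same holds for 15 tested stem and leukaemia-associated genes, with 5 higher and 6 lower, and 5 and 4 with library sizes alone. For 21 CDK inhibitors and G1 regulators the count was 7 higher and 6 lower, or 9 and 3 with library sizes alone, and the median difference was 0.11, or -0.06 with groups without reads at the floor of 3 reads. The shares over all tested genes were 24.9% higher and 22.7% lower.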
